A study of Mus musculus with 6 samples.

Results

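The genes described here are 10 regulators of the actin cytoskeleton, of 46983 genes with a deposited value. They are the gelsolin family members Gsn, Capg, Scin, Svil and Flii, the actin monomer binding genes Tmsb4x, Tmsb10 and Pfn1, the filament severing gene Cfl1, and Marcksl1. The genes were taken by symbol, and each symbol matched a single gene. They were selected on measured values, with their RPKM difference between the ages known, so their levels and fold changes at the gene level are a description and carry no p-value.

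RNA was sequenced from whole aortic valves of wild type C57BL/6J mice, taken either on postnatal day 2, called PND2 here, or at an adult age of 4 months. Each age had 3 libraries, labelled as biological replicates, and each library pooled the valves of 5 to 6 animals. Library totals, worked out from the exon RPKM values, ran from 23810507 to 38994657. Values are RPKM, that is, reads scaled by exonic length and by library total. The exonic length covers all annotated exons of a gene, so comparisons between genes depend on the annotation.

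Actin filaments grow at the barbed end by taking up monomers and are shortened by severing and loss at the pointed end. Gelsolin and its close relatives sever filaments or cap barbed ends in a calcium-dependent manner, thymosins hold monomers in reserve, profilin hands monomers to growing ends, and cofilin severs older filaments. Marcksl1 links actin to the plasma membrane and is regulated by protein kinase C and calmodulin. In valves, interstitial cells remodel the matrix after birth, and adult cells are largely quiescent.

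Gelsolin is made from alternative starts of the gene Gsn, which lies on the plus strand of chromosome 2 (mm10 chr2:35256380-35307892). The downstream start gives the secreted form with a signal peptide, and the upstream start gives the cytoplasmic form. In the GENCODE M21 annotation of the same build, the coding sequence of the downstream transcript Gsn-201 has 780 codons and that of the upstream transcript Gsn-205 has 731. The shorter was contained in the longer, which has 49 additional codons at its start. Since the libraries of the ages differed in the use of these starts, as described below, the sequences around them are shown. The first pair of lines gives the 250 bases before the RefSeq starts nearest to those of Gsn-205 and Gsn-201 (GRCm38.p6, plus strand, chr2:35256109-35256358 and chr2:35282130-35282379), with matches to the motifs searched in capitals. A further RefSeq window of Gsn between them (chr2:35266494-35266793) is not shown and held 1 match to the GC box and 1 to the CCAAT box. It ends shortly before upstream exon 2, described below, so a start there cannot be told apart from the upstream start. The next line gives the coding part of the downstream start exon (chr2:35282464-35282601), with the start codon of the secreted form in capitals. The last line gives the beginning of the exon that both transcripts share (chr2:35283905-35283934), with the start codon of the cytoplasmic form in capitals.
Gsn upstream start: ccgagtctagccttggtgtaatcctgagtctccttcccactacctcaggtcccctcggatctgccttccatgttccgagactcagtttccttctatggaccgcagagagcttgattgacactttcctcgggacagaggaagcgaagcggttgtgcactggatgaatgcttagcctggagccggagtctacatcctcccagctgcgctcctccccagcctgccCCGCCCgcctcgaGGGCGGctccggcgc
Gsn downstream start: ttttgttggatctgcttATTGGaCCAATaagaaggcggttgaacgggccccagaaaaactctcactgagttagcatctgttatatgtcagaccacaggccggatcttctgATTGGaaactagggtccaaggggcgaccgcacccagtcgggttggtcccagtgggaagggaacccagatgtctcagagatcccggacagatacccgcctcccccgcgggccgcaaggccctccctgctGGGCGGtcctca
Gsn downstream coding part: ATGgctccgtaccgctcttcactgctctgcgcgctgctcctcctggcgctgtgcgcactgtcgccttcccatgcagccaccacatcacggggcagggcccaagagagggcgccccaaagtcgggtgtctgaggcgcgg
Gsn shared exon: cccagcactATGgtggtggagcaccccgaa

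The motifs searched, all on both strands, were the TATA box (letters TATAAA), the GC box bound by Sp1 (letters GGGCGG), the CCAAT box with the letters of its name, the AP-1 site (letters TGANTCA) and the CArG box, which is bound by serum response factor. The upstream window held 2 matches to the GC box, and the downstream window held 1 match to the GC box and 3 to the CCAAT box, none of which overlapped. Of 32851 RefSeq promoter windows of the same length, 32.7% held a GC box and 33.8% a CCAAT box. The TATA box, the AP-1 site and the CArG box, found in 12.4%, 6.75% and 1.47% of windows, had no match in either window shown. A match is a description of these letters only.

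At the level of the whole gene, Gsn was the member with the largest difference between the ages in these libraries. Its level was 302, 339 and 374 RPKM in the PND2 libraries and 3845, 3767 and 4458 RPKM in the 4-month libraries. Every 4-month library was far above every PND2 library, and replicates of an age lay close together. The mean went from 338 ± 35.7 to 4024 ± 378 RPKM (SD, n = 3 per age), a ratio of 11.9 and a log2 difference of 3.57 ± 0.15 (SE). Between 32687 and 453445 reads per library stood behind these values.

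**Figure D1:**
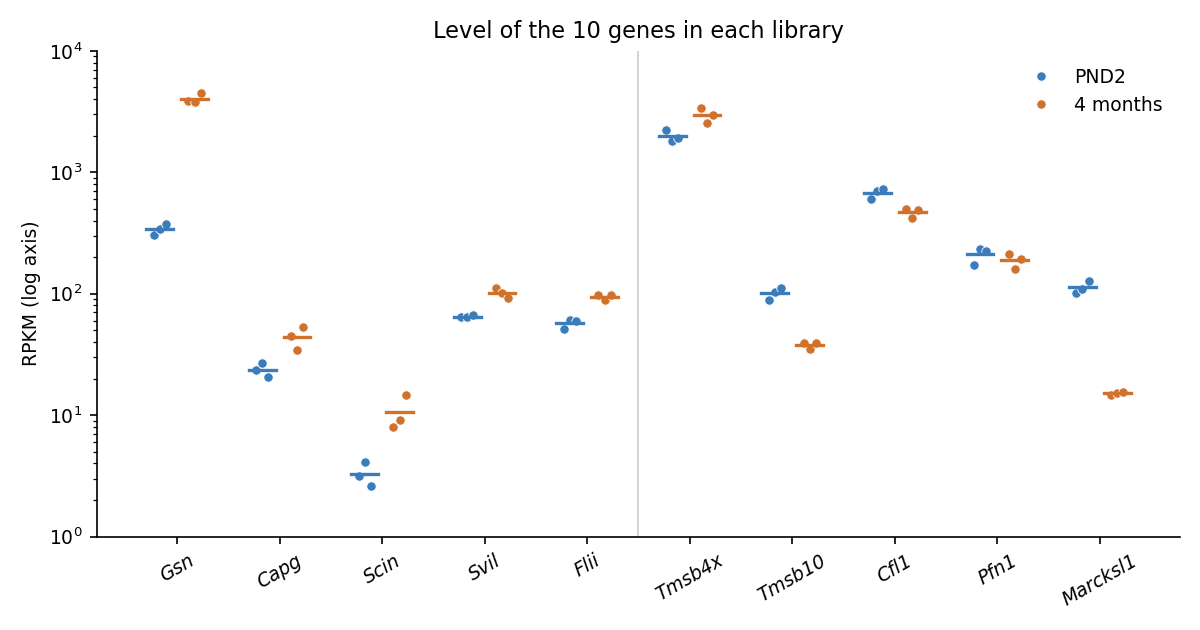
RPKM of the 10 genes (vertical log axis) in each PND2 and 4-month library. Points are libraries, bars are means of 3 libraries, and the grey line divides the gelsolin family from the other genes. Pfn1 is the gene whose PND2 and 4-month libraries overlap.

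The other 4 gelsolin family members were also higher at 4 months, by smaller ratios. Capg, which caps barbed ends without severing, lies at chr6:72544391-72562983 and measured 23.4, 26.7 and 20.5 RPKM at PND2 and 44.9, 34.2 and 52.7 RPKM at 4 months. Its mean ratio was 1.87 and its log2 difference 0.89 ± 0.18 (SE), with no overlap of the ages. Scin, which encodes the calcium-dependent severing protein scinderin (adseverin), lies at chr12:40059769-40134228 and was the least abundant of the 10 at both ages. It measured 3.17, 4.11 and 2.61 RPKM at PND2 and 8.05, 9.12 and 14.6 RPKM at 4 months. The ages did not overlap, but the 4-month libraries were more spread than those of the other family members. The mean ratio was 3.22 and the log2 difference 1.63 ± 0.27 (SE), from 229 to 1271 reads per library.

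Svil encodes supervillin, a large membrane-associated protein that binds actin and myosin, and lies on chromosome 18. It measured 63.9, 64.4 and 66.3 RPKM at PND2 and 111, 101 and 92.6 RPKM at 4 months, a mean ratio of 1.57 and a log2 difference of 0.64 ± 0.09 (SE). The PND2 libraries were almost level, with an SD of 1.28 RPKM. Flii (chr11:60714123-60727263), whose product joins leucine-rich repeats to gelsolin-like domains, measured 51.3, 60.4 and 59.4 RPKM at PND2 and 97.0, 89.0 and 97.9 RPKM at 4 months. All 4-month libraries were above all PND2 libraries for both genes, and the log2 difference of Flii was 0.73 ± 0.10 (SE). Flii shares 64 exonic bases, 1.27% of its exonic length, with Llgl1 on the opposite strand, which measured 23.2 RPKM on average at PND2 and 14.4 RPKM at 4 months. The libraries were stranded, but the methods do not say if strand entered the counting, so reads on the shared bases cannot be told apart.

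Within the gelsolin family, the summed level of the 5 genes came almost wholly from Gsn at 4 months. Gsn held 68.1, 68.6 and 71.5% of the summed RPKM at PND2 and 93.6, 94.2 and 94.5% at 4 months. The shares of Svil and Flii went from 13.4 ± 0.898% and 11.7 ± 0.437% to 2.4 ± 0.385% and 2.22 ± 0.143% (SD, n = 3 per age), although both genes had a higher RPKM at 4 months.

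Among the monomer binding genes, the paired thymosins moved in opposite directions. Tmsb4x (chrX:167207093-167209315) encodes thymosin beta 4, the main monomer-sequestering peptide of many cells, and was the most abundant of the 10 genes at PND2. It measured 2213, 1819 and 1920 RPKM at PND2 and 3375, 2535 and 2972 RPKM at 4 months, with a log2 difference of 0.57 ± 0.18 (SE). The ages did not overlap, and the gap between the highest PND2 and the lowest 4-month library was small against the spread. Tmsb10 (chr6:72957347-72958748) encodes the related peptide thymosin beta 10 and measured 89.1, 102 and 111 RPKM at PND2 and 38.9, 35.3 and 39.6 RPKM at 4 months. Its mean was 2.66 times higher at PND2, a log2 difference of -1.41 ± 0.11 (SE), with the ages well apart. The ratio of Tmsb4x to Tmsb10 was 24.9, 17.8 and 17.3 at PND2 and 86.8, 71.8 and 75.1 at 4 months.

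The level of Tmsb10 is uncertain, because a near-identical gene shares its sequence. Gm9844 matched the longest Tmsb10 transcript with 99.0% identity over 413 bases. Reads summed over genes exceeded the library totals, so a read could be counted more than once. Whether this was at several exons of a gene or at more than 1 gene cannot be told from the totals, and the methods do not state how reads matching both genes were counted. Gm9844 measured 573, 592 and 594 RPKM at PND2 and 187, 175 and 188 RPKM at 4 months, so it was more abundant than Tmsb10 at both ages. The pair therefore had the same direction, but reads could be split between them, and the ratio of Tmsb4x to Tmsb10 rests on the value listed for Tmsb10. For Tmsb4x, Gsn, Capg, Scin, Svil, Flii and Pfn1 no other transcript matched over at least 200 bases at 90% identity.

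Cfl1 (chr19:5490485-5494029) encodes cofilin 1, the non-muscle filament severing protein. It measured 606, 698 and 724 RPKM at PND2 and 496, 416 and 486 RPKM at 4 months, a log2 difference of -0.54 ± 0.13 (SE). The ages did not overlap. Cfl1 has a processed pseudogene, Gm6180, with 98.8% identity over 498 bases, which was listed at 648 RPKM on average at PND2 and 403 RPKM at 4 months. The other matching genes, Gm8682, Gm44227, Gm14933 and Snx32, averaged at most 36.2 RPKM at either age. The level of Cfl1 is therefore uncertain in the same way as that of Tmsb10.

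Pfn1 (chr11:70651850-70654644) encodes profilin 1, which delivers monomers to growing filament ends. It measured 173, 235 and 223 RPKM at PND2 and 211, 161 and 195 RPKM at 4 months, and the ages overlapped. The log2 difference was -0.15 ± 0.15 (SE), close to the median of -0.14 over all genes tested. The ratio of Cfl1 to Pfn1 was 3.50, 2.97 and 3.25 at PND2 and 2.36, 2.59 and 2.50 at 4 months, so every PND2 library had the higher ratio. The exonic length of Pfn1, 2405 bases, includes an exon of 1997 bases that is noncoding in its own transcript and averaged 160 RPKM at PND2. That exon spans coding exons of other transcripts and the bases between them. Pfn1 exons listed with coding bases averaged 384 to 710 RPKM at that age. The level of Pfn1 and the size of the ratio therefore depend on the annotation.

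Marcksl1 (chr4:129513581-129515985) had the largest fall among the 10 genes. It measured 102, 109 and 128 RPKM at PND2 and 14.7, 15.2 and 15.5 RPKM at 4 months. The 4-month libraries were nearly equal, and all lay far below the PND2 libraries. The mean was 7.46 times higher at PND2 and the log2 difference was -2.88 ± 0.11 (SE). Akr1c19 and the pseudogene Gm9089 matched Marcksl1 transcripts at 91.0% identity, and both averaged at most 2.20 RPKM at either age.

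Ranked by mean RPKM, the order at PND2 was Tmsb4x, Cfl1, Gsn, Pfn1, Marcksl1, Tmsb10, Svil, Flii, Capg and Scin. Of the neighbours in this order, Marcksl1 and Tmsb10 overlapped between libraries and the others did not. At 4 months the order was Gsn, Tmsb4x, Cfl1, Pfn1, Svil, Flii, Capg, Tmsb10, Marcksl1 and Scin. There, Svil overlapped with Flii and Capg overlapped with Tmsb10. Gsn thus stood behind Tmsb4x and Cfl1 at PND2 and at the head of the list at 4 months, and Marcksl1 went from the fifth to the ninth place. Places in both orders depend on the annotated exonic lengths, that of Pfn1 among them.

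In the comparison of the ages over all 25903 genes that reached 0.1 RPKM in 3 or more of the 6 libraries, 9273 genes, or 35.8%, passed an adjusted p of 0.05 (limma on log2(RPKM + 0.1), Benjamini-Hochberg adjustment). Of these, 3810 (14.7% of genes tested) were higher at 4 months and 5463 (21.1%) were lower. Of the 10 members, 9 passed the same threshold, 6 higher and 3 lower, which the choice of the genes fixed. The libraries of the ages did not overlap for 9 members, against 50.0% of all genes tested. The median log2 difference was 0.61 over the members and -0.14 over all genes. Scaling the libraries by their median log2 ratio moved that median by 0.12, to -0.016, and changed the split of called genes to 4601 higher and 4129 lower. Under all 16 alternatives every member kept its direction, on the same libraries that served to choose the genes.

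The libraries came from whole valves, so fewer cells of a type and less RNA per cell cannot be told apart. Markers of several cell types moved with age, and their part in the members' values was not tested. Of 8 valve interstitial or fibroblast markers, 2 rose and 4 fell, and their summed level ranged from 6501 to 7152 RPKM at PND2 and from 8033 to 10135 RPKM at 4 months. All 8 endothelial markers fell, from a summed 425 to 576 RPKM to 240 to 257 RPKM. Of 8 macrophage markers tested 7 rose, from 320 to 368 RPKM to 1042 to 1132 RPKM. Of 6 smooth muscle markers 5 rose, from 3291 to 3674 RPKM to 7398 to 11852 RPKM, and of 8 cardiomyocyte markers 5 fell, from 11136 to 13269 RPKM to 3659 to 7553 RPKM. All 7 mitotic markers fell, from 40.1 to 76.9 RPKM to 5.06 to 5.96 RPKM, and all 5 neutrophil markers tested fell, from 25.3 to 31.9 RPKM to 0.588 to 1.04 RPKM, with Ngp at 0 in every 4-month library.

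Of 7 adipocyte markers 6 rose, from a summed 63.8 to 147 RPKM at PND2 to 326 to 1427 RPKM at 4 months, with Cidec, Lep and Retn at 0 in every PND2 library. Replicate 2 at 4 months had the highest adipocyte level of that age, 1427 RPKM against 344 and 326 RPKM, and it had the lowest Gsn value of that age, 3767 RPKM. Without that library the log2 differences of the 10 genes kept their directions, but the genes were chosen on this difference. The part of adipocytes in their values was not tested. For the remaining lists, erythroid markers summed to 875 to 1220 RPKM at PND2 and 351 to 1017 RPKM at 4 months, T cell markers to 3.05 to 7.85 and 3.61 to 4.06 RPKM, Schwann cell markers to 10.3 to 21.9 and 37.2 to 45.1 RPKM, and melanocyte markers to 44.7 to 92.9 and 27.4 to 51.6 RPKM. Of 6 T cell markers tested 3 rose and 1 fell, with a median log2 difference of 1.51. Cd3e was at 0 in every PND2 library, while Trac, which carried most of the PND2 sum, had a mean of 4.51 RPKM at PND2 and 0.799 RPKM at 4 months. Of 4 Schwann cell markers 2 rose, and of 5 melanocyte markers 2 fell.

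The use of exons within a gene did not itself serve to choose the genes, but it is relative to the gene level, which did. It was tested for 243348 exons with limma's diffSplice. Each exon was set against the rest of its gene, and it was called where the log2(RPKM + 0.1) fit and a fit with voom weights on recovered reads both gave an adjusted p under 0.05. Both fits pooled the residual spread over the exons of a gene, and some exons overlap and share reads. Their p-values therefore do not measure the spread between libraries alone. Over all genes, 660 exons (0.271%) were called, and 309 (0.127%) were less used at 4 months. Of 207 tested exons of the 10 genes, 8 were called, all less used at 4 months. They fell into 4 separate stretches, 2 in Gsn, 1 in Svil and 1 in Tmsb4x. The log2 fit alone passed 13 exons of the members and the voom fit alone passed 10.

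**Figure D2:**
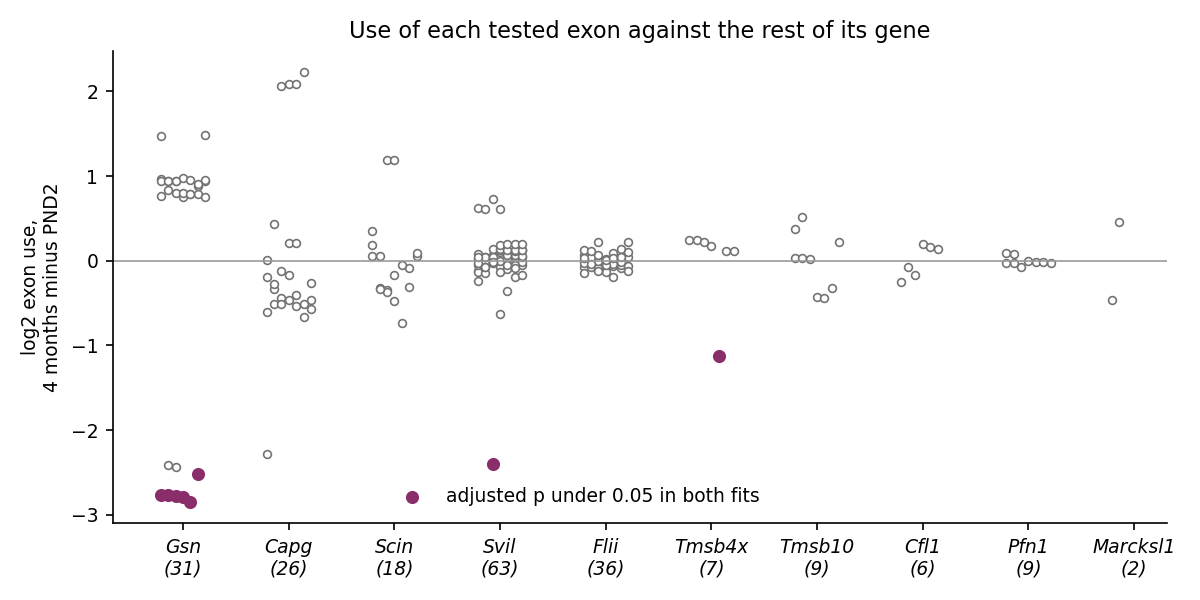
Log2 difference in the use of each tested exon against the rest of its gene, 4 months minus PND2 (vertical axis), for the 10 genes, with the number of exons tested under each name. Filled points are the 8 exons called in both fits, all below 0 and in Gsn, Svil and Tmsb4x.

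The upstream exons of Gsn did not share in the rise of the gene. Upstream exon 1 (chr2:35256380-35256473), a noncoding exon of the cytoplasmic form, measured 28.6, 68.0 and 53.8 RPKM at PND2 and 54.4, 43.8 and 48.5 RPKM at 4 months, and the ages overlapped. Upstream exon 2 (chr2:35266820-35266903), also noncoding, measured 96.5, 124 and 96.0 RPKM at PND2 and 133, 113 and 136 RPKM at 4 months. Neither exon separated the ages, while the shared exon (chr2:35283905-35284109) measured 316, 346 and 365 RPKM at PND2 and 3643, 3494 and 4074 RPKM at 4 months, a mean ratio of 10.9.

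Relative to the rest of Gsn, the use of upstream exon 1 fell by 2.76 ± 0.54 (SE) on the log2 scale (diffSplice, adjusted p = 0.000233). In the voom fit it fell by 3.26 ± 0.27 (adjusted p = 2.37e-18). For upstream exon 2 the use fell by 2.52 ± 0.54 (diffSplice, adjusted p = 0.00121), and in the voom fit it fell by 3.09 ± 0.22 (adjusted p = 8.39e-23). The other 4 called Gsn exons are overlapping versions of upstream exon 1 that end at the same base and share its reads, so they are no separate evidence. They also count in the rest of the gene, so the size of these falls depends on them. Set against the shared exon alone, upstream exon 1 had a mean RPKM ratio of 0.145 at PND2 and 0.0131 at 4 months. All 6 calls held under all 9 alternatives. The upstream exons did not separate the ages in RPKM. Their fall in use therefore draws on the rise of the gene, which was known when the genes were chosen.

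The downstream start exon (chr2:35282380-35282601), which begins the secreted form, measured 82.4, 101 and 133 RPKM at PND2 and 1854, 1585 and 2131 RPKM at 4 months. Its mean ratio was 17.7, above that of the shared exon. The log2 difference in its use was 0.89 in the voom fit (adjusted p = 0.000489) and 1.49 ± 0.54 (SE) in the log2 fit (diffSplice, adjusted p = 0.273), so it was not called. Both fits passed in 3 of 9 alternatives. Set against upstream exon 1, the downstream start exon made up 74.2, 59.7 and 71.1% of the RPKM of the pair at PND2 and 97.1, 97.3 and 97.8% at 4 months. Set against upstream exon 2, the share was 46.1, 44.8 and 58.0% at PND2 and 93.3, 93.3 and 94.0% at 4 months. In either form the lowest 4-month library was above the highest PND2 library. RPKM at the ends of transcripts depends on fragment coverage, so these shares are of exon RPKM and not of molecules.

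**Figure D3:**
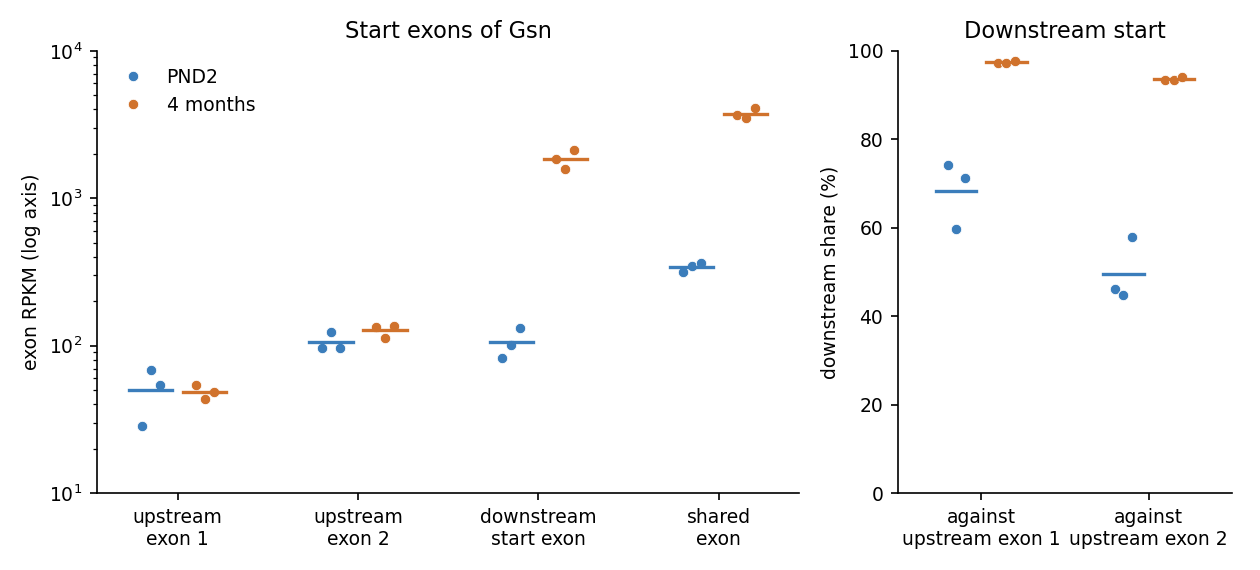
Left, RPKM (log axis) of the start exons of Gsn and of the exon that both transcripts share, per library. Right, the downstream start exon as a percentage of its own RPKM plus that of upstream exon 1 or 2. Bars are means of 3 libraries, and the upstream exons stay level while the downstream share goes from 68.3 to 97.4% or from 49.6 to 93.5%.

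In Svil, a single exon of 96 coding bases was less used at 4 months, although the gene itself was higher. The exon measured 41.7, 56.3 and 66.9 RPKM at PND2 and 12, 25.8 and 13.3 RPKM at 4 months. Its use fell by 2.4 ± 0.19 (SE) on the log2 scale (diffSplice, adjusted p = 9.11e-25), and the voom fit gave an adjusted p of 4.62e-14. Relative to the gene's RPKM, the exon stood at 0.653, 0.875 and 1.01 at PND2 and at 0.108, 0.255 and 0.144 at 4 months. In GENCODE M21 the exon belongs to Svil-201, Svil-203, Svil-207, Svil-210 and Svil-215 and is skipped by the coding transcripts Svil-204 and Svil-211. Summed cardiomyocyte markers were 11136, 11579 and 13269 RPKM in the PND2 libraries and 3659, 7553 and 5155 RPKM in the 4-month libraries, the same order of libraries within each age as for the exon. Their part in the difference was not tested. The call held under all 9 alternatives.

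In Tmsb4x, the first exon of transcript Tmsb4x-202, which is 505 bases long with 3 coding bases, was less used at 4 months. It measured 28.2, 27.9 and 28.4 RPKM at PND2 and 20.4, 15.9 and 21.1 RPKM at 4 months, against 1819 to 3375 RPKM for the gene. That was 1.27, 1.53 and 1.48% of the gene's RPKM at PND2 and 0.605, 0.627 and 0.709% at 4 months. The use fell by 1.12 ± 0.19 (SE) on the log2 scale (diffSplice, adjusted p = 0.000271), with an adjusted p of 0.00749 in the voom fit. The call was lost without PND2 replicate 2, without PND2 replicate 3 and without 4-month replicate 3, where the use fell by 1.07, 1.09 and 1.19.

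No exon was called in the other 7 genes by both diffSplice fits. At an unadjusted p under 0.05 in the log2 fit there were 5 exons in Capg and 2 in Scin, and 0 in Flii, Tmsb10, Cfl1, Pfn1 and Marcksl1. For Flii, a gene with 36 exons tested, log2 differences in use lay between -0.20 and 0.23, and for Pfn1 they lay between -0.071 and 0.096. In Capg, 2 start exons passed the log2 fit and not the voom fit. The upstream Capg exon (chr6:72544391-72544466) held 37, 55 and 40 reads at PND2 and 59, 3 and 43 reads at 4 months, so the 3 reads of 4-month replicate 2 stood apart. The downstream Capg exon (chr6:72549458-72549501) held 7, 3 and 3 reads at PND2 and 47, 25 and 48 reads at 4 months.

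Beyond the 10 genes, 123 other actin regulators in 10 lists were compared between the ages in the same limma fit. Of 119 tested, 23 were higher at 4 months, 30 were lower and 66 did not pass the threshold, so 53 were called against the 35.8% of all genes given above. Their median log2 difference was -0.013, beside -0.14 for all genes. With median scaling the split was 30 higher and 22 lower.

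**Figure D4:**
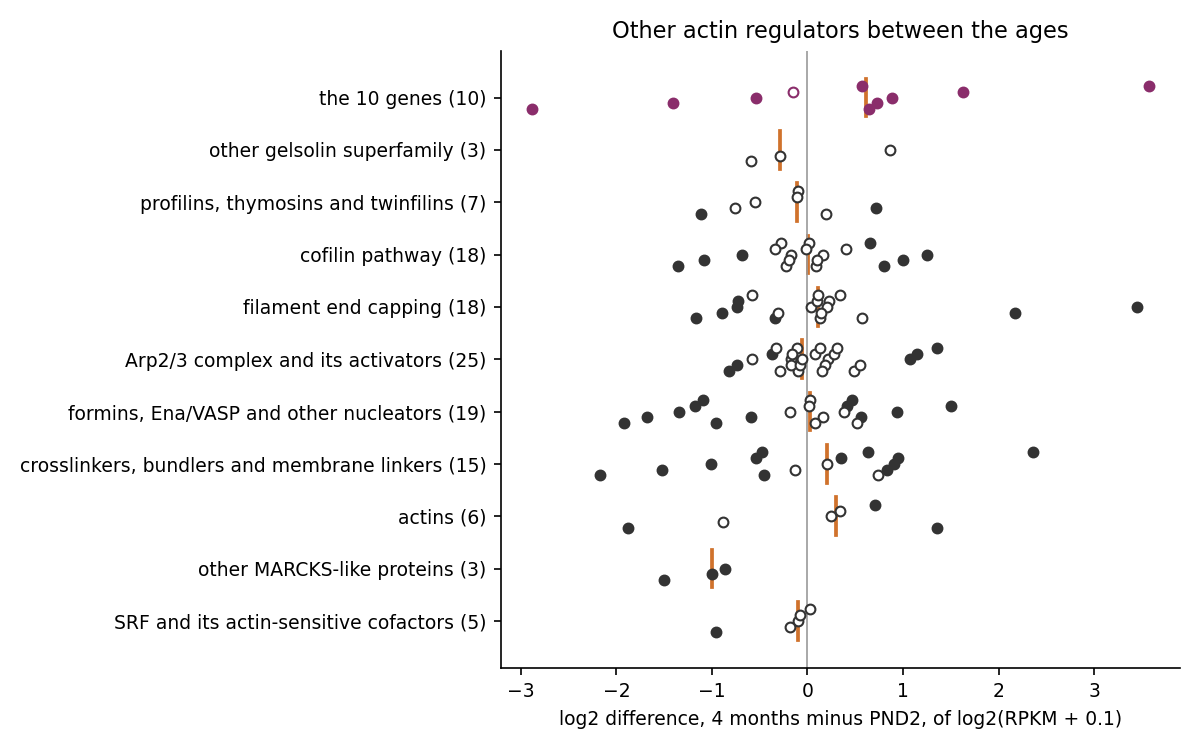
Log2 differences, 4 months minus PND2 (horizontal axis), of the 10 genes (purple) and of other actin regulators by list, with the number of genes tested in brackets. Filled points passed an adjusted p of 0.05, open points did not, and orange bars are list medians, which run from -1.0 for the MARCKS-like proteins to 0.61 for the 10 genes.

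None of the other gelsolin superfamily genes (Vil1, Vill and Avil) passed in limma, with 2 at an unadjusted p under 0.05 and 1 passing with voom. The most abundant, Vill, averaged 3.41 RPKM at PND2 and 2.22 RPKM at 4 months (limma, adjusted p = 0.0887, and 0.0481 without PND2 replicate 1). Their median log2 difference was -0.28.

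Of 7 profilins, thymosins and twinfilins tested, 1 rose and 1 fell, with a median of -0.11. Twf2, a monomer and barbed end binding twinfilin, rose from 25.5 ± 2.12 to 41.9 ± 5.38 RPKM (limma, log2 difference 0.71, adjusted p = 0.00436). Tmsb15b1, a further beta thymosin, fell from 22.8, 13.5 and 10.1 RPKM to 6.46, 6.03 and 7.63 RPKM (limma, log2 difference -1.12, adjusted p = 0.020). This call was lost without 4-month replicate 1 (adjusted p = 0.0512) and without 4-month replicate 2 (adjusted p = 0.0587), and with a per-gene unequal-variance test (adjusted p = 0.170). The related Tmsb15b2 and Tmsb15l averaged 10.1 and 11.8 RPKM at PND2 and 6.35 and 6.57 RPKM at 4 months. Neither passed (limma, adjusted p = 0.285 and 0.0881). Copies of Tmsb15b1 were not searched, so reads shared with these relatives cannot be told apart. Twf1, the most abundant of the list, measured 35.9 ± 0.228 and 33.4 ± 3.07 RPKM, with a direction that changed under median scaling (log2 difference -0.11 against 0.012).

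In the cofilin pathway 4 of 18 genes tested rose and 3 fell, with a median of 0.00055. Dstn, which encodes destrin, a close relative of cofilin, measured 890, 676 and 736 RPKM at PND2 and 2245, 1619 and 1653 RPKM at 4 months. It rose 2.4-fold (limma, log2 difference 1.25 ± 0.18 SE, adjusted p = 0.00230), and its direction was opposite to that of Cfl1. The LIM kinases Limk1 and Limk2, which phosphorylate and inactivate cofilin, were lower at 4 months. Limk2 fell from 31.3 ± 4.00 to 12.2 ± 0.987 RPKM (limma, log2 difference -1.35, adjusted p = 0.000354), and Limk1 from 5.51 ± 0.468 to 2.54 ± 0.127 RPKM (limma, log2 difference -1.09, adjusted p = 0.00234). The related kinases did not pass, with Tesk1 at 19.8 ± 4.05 and 25.8 ± 2.36 RPKM (limma, adjusted p = 0.106) and Tesk2 at 4.63 ± 0.0981 and 4.74 ± 1.01 RPKM (limma, adjusted p = 0.962).

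For filament end capping, 2 of 18 genes tested rose and 5 fell, with a median of 0.11. Eps8l2, of the EPS8 family of barbed end binding proteins, rose from 0.802 ± 0.200 to 9.83 ± 2.94 RPKM (limma, log2 difference 3.44, adjusted p = 0.000207). Lmod1, a leiomodin of smooth muscle that is also in the smooth muscle list, rose from 47.0 ± 5.56 to 215 ± 53.5 RPKM (limma, log2 difference 2.17, adjusted p = 0.000230). Tmod1, a pointed end capping protein of striated muscle and red cells, fell from 143 ± 7.05 to 86.2 ± 15 RPKM (limma, log2 difference -0.74, adjusted p = 0.00535). Capzb, the beta subunit of capping protein, was the most abundant at 141 ± 8.37 and 165 ± 13.9 RPKM (limma, adjusted p = 0.116), and passed under median scaling with an adjusted p of 0.0150 and under quantile normalization with 0.0234.

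The Arp2/3 complex and its activators showed 3 of 25 genes higher, 3 lower and 19 not past the threshold, with a median of -0.053. The haematopoietic activators Hcls1 and Nckap1l rose, Hcls1 from 6.11 ± 1.25 to 15.7 ± 2.85 RPKM (limma, log2 difference 1.35, adjusted p = 0.00222) and Nckap1l from 5.08 ± 1.29 to 11.2 ± 1.57 RPKM (limma, log2 difference 1.14, adjusted p = 0.00496). Both moved with the macrophage markers given above, whose part was not tested. Cttn, cortactin, the widely expressed relative of Hcls1, fell from 111 ± 14.7 to 62.3 ± 3.23 RPKM (limma, log2 difference -0.82, adjusted p = 0.00201). The core subunit Arpc2 was the most abundant, with 319 ± 32.5 and 254 ± 16.6 RPKM (limma, adjusted p = 0.0581). It passed without PND2 replicate 1 (adjusted p = 0.0347).

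Of the formins, Ena/VASP proteins and other nucleators, 5 of 19 rose and 7 fell, with a median of 0.027. Evl, an Ena/VASP protein, fell from 41.1 ± 4.92 to 12.8 ± 1.56 RPKM (limma, log2 difference -1.68, adjusted p = 0.000210), while the related Vasp measured 102 ± 12.4 and 103 ± 13.8 RPKM (limma, adjusted p = 0.959). Leaving out PND2 replicate 1, 4-month replicate 1 or 4-month replicate 3 turned the log2 difference of Vasp from 0.011 to between -0.077 and -0.033. Fmnl1, a formin of leukocytes, rose from 2.75 ± 0.415 to 7.90 ± 0.212 RPKM (limma, log2 difference 1.5, adjusted p = 0.000673). Fhod3, a formin of cardiac muscle, measured 44.1, 42.1 and 52.1 RPKM at PND2 and 13.7, 25.9 and 16.3 RPKM at 4 months (limma, log2 difference -1.35, adjusted p = 0.00400). As with the Svil exon, its highest 4-month value was in replicate 2, the library with the highest cardiomyocyte markers of that age. At PND2 the order of libraries differed between Fhod3 and these markers. The part of cardiomyocytes in its difference was not tested.

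Crosslinkers, bundlers and membrane linkers had 6 of 15 genes higher and 6 lower, with a median of 0.21. Fscn1, the bundling protein fascin of filopodia, measured 32.6, 42.7 and 43.7 RPKM at PND2 and 7.39, 8.94 and 9.92 RPKM at 4 months, with no overlap. It fell 4.54-fold (limma, log2 difference -2.17 ± 0.16 SE, adjusted p = 0.000158). Dbn1, which encodes drebrin, fell from 48.0 ± 5.28 to 16.7 ± 1.99 RPKM (limma, log2 difference -1.52, adjusted p = 0.000260), and Palld, palladin, from 35.0 ± 4.61 to 17.3 ± 2.01 RPKM (limma, log2 difference -1.01, adjusted p = 0.00176). Pls3, the bundling protein plastin 3 and the most abundant of the list, rose from 376 ± 24.8 to 584 ± 55.9 RPKM (limma, log2 difference 0.63, adjusted p = 0.00560).

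Among the 6 actins, 2 rose and 1 fell, with a median of 0.29. Acta2, smooth muscle alpha actin, measured 4138, 4852 and 5040 RPKM at PND2 and 16006, 9422 and 11279 RPKM at 4 months (limma, log2 difference 1.36, adjusted p = 0.0105), and the call was lost without PND2 replicate 1 (adjusted p = 0.0523) and with a per-gene unequal-variance test (adjusted p = 0.0747). Actc1, cardiac alpha actin, measured 5605, 6320 and 6944 RPKM at PND2 and 1175, 2529 and 1673 RPKM at 4 months (limma, log2 difference -1.88, adjusted p = 0.00307). Both moved with the smooth muscle and cardiomyocyte markers, respectively, and the part of those cells was not tested. Actg2, smooth muscle gamma actin, measured 87.7 ± 22.8 and 143 ± 31.3 RPKM (limma, log2 difference 0.71, adjusted p = 0.0397), a call that was lost in 8 of 16 alternatives, with adjusted p-values of up to 0.158.

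The other MARCKS-like proteins were all lower at 4 months, as Marcksl1 was, with a median of -1.0. Marcks, the closest relative of Marcksl1, measured 77.2, 63.3 and 73.0 RPKM at PND2 and 35.8, 43.5 and 37.7 RPKM at 4 months, a fall of 1.83-fold (limma, log2 difference -0.87 ± 0.12 SE, adjusted p = 0.00161) that held in all 16 alternatives. Basp1 measured 18.6, 9.99 and 15.4 RPKM at PND2 and 10.4, 7.09 and 4.79 RPKM at 4 months, and Gap43 measured 20.5, 10.9 and 21.0 RPKM and 11.6, 5.96 and 2.88 RPKM, so the ages overlapped for both. Their adjusted p-values were 0.0480 and 0.0496 (limma), and the calls were lost in 10 and 11 of 16 alternatives, with adjusted p-values of up to 0.177 and 0.214. Libraries whose removal ended both calls were PND2 replicates 1 and 3 and 4-month replicates 2 and 3.

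For SRF, the transcription factor that acts through the CArG box, and its actin-sensitive cofactors, 1 of 5 genes fell and 4 did not pass, with a median of -0.10. Scai, an inhibitor of the cofactors, fell from 7.49 ± 1.03 to 3.78 ± 0.0482 RPKM (limma, log2 difference -0.96, adjusted p = 0.00332). Srf measured 44.7 ± 6.07 and 41.5 ± 3.27 RPKM (limma, adjusted p = 0.576), and its direction changed under median scaling, from a log2 difference of -0.10 to 0.022.

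The genes whose pattern lay nearest to that of Gsn and of Marcksl1 were taken among 14215 genes with a mean of at least 5 RPKM, by the Euclidean distance of centred log2(RPKM + 0.1) values over the 6 libraries. Nearest to Gsn were Fbln7, Npy1r, H2-Q5, Hr and Eps8l2, at distances of 0.42 to 0.52. They went from 0.859 to 13, 8.97 to 97.5, 1.95 to 20.5, 2.02 to 21.0 and 0.802 to 9.83 RPKM on average, so all were far less abundant than Gsn. Eps8l2 is the member of the end capping list described above. Nearest to Marcksl1 were Tmeff1, Ptk7, Lmnb1, Grb10 and Clca3a1, at distances of 0.35 to 0.50. These were 8.69, 7.29, 8.16, 9.22 and 7.42 times higher at PND2. With 6 libraries in a pair of ages, such a likeness mainly restates the size of the difference between the ages.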

How the data were processed

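RPKM values per gene and per exon of 6 aortic valve libraries were analysed. Per the labels and the study's methods, the authors trimmed and aligned reads with TopHat2 2.1.0 to mm10, counted them on Ensembl genes and exons in R 3.2.2, and deposited RPKM values. Each library holds genes with 1 to 10 reads, so the replacement of low values in the study's methods had not been applied to the files. Each library total was worked out from the smallest nonzero product of exon RPKM and length, taken as 1 read. Multiplying RPKM by length and this total gave whole reads for 100% of values (tolerance 0.001). A read may be counted more than once in these numbers.

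Genes that reached 0.1 RPKM in 3 or more libraries were compared on log2(RPKM + 0.1) with limma 3.58.1 (trend, 2-sided, R 4.3.3, data.table version 1.17.8), with no replicate block. Fold changes on this scale understate changes of low genes. Exons that reached 1 RPKM in 3 or more libraries were tested with diffSplice, and an exon was called where voom weights on recovered reads passed as well. Promoter windows are from RefSeq and transcripts from GENCODE M21. Symbols of 3 listed genes were matched by Ensembl ID to older symbols (Diap1, Diap2 and Diap3). Pdxp was not analysed here. Copies were searched with BLAST 2.17.0. Tables and figures used Python 3.11.15, numpy 2.4.6, pandas 2.3.3 and matplotlib 3.10.9.

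The members and the lists were chosen with earlier results of these data known. Named were all members, called exons, near-identical or overlapping genes, from each of the 10 lists of actin regulators up to 3 called genes with the largest difference and a mean of at least 5 RPKM at the higher age plus the most abundant gene, and the 5 genes nearest to Gsn and Marcksl1. The 12 marker lists served as a check of cell types. On simulated data with 200 planted genes among 25613, limma found 63% of genes changed by 1 on the log2 scale and 100% of those changed by 2, with 13 false calls. For 200 planted exons among 240154, the log2 fit made 785 false calls, and both fits together made 0 and found 53% and 89%. False exon calls were counted only in genes with no planted exon. Each simulated exon was drawn separately, while real exons can overlap and share reads. The simulated reads had a fixed spread, and changes were planted only in genes and exons with enough reads. Real exons can spread more, as Gsn upstream exon 1 did at PND2 (50.1 ± 19.9 RPKM, SD). The percentages found and the false calls therefore describe the simulation and need not hold for these data. Alternatives were other pseudocounts, filters, scalings and tests, voom, a replicate block, and each library left out in turn. The log2 exon fit alone was added after the data were seen. P-values of the gene fits measure the spread between pooled libraries. Those of the exon fits also draw on the residual spread pooled over the exons of a gene.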

Additional observations from a re-analysis of the deposited data

How the results depend on the processing

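Most results kept their direction and side of the threshold. The counts of calls stayed within 1.5 times in 85 of 91 alternatives. With a per-gene unequal-variance test, 3408 genes passed in place of 9273, 4 members in place of 9, and 26 other actin regulators in place of 53 (13 higher and 13 lower). The log2 exon fit alone, added after the data were seen, called 13 exons of the members in place of 8. The causes were not tested. Leaving out each library in turn gave 6301 to 8581 genes, 7 to 9 members, 39 to 52 other regulators (18 to 23 higher and 21 to 29 lower) and 7 to 11 member exons.

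Same-numbered replicates did not vary together (r of 0.044, -0.061 and -0.16 across genes, which are no independent replicates), so the numbers do not pair the libraries. With a replicate block 7167 genes passed, and 9 members, 42 other regulators (19 higher and 23 lower) and 10 member exons.

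Of 496 alternatives for named regulators, 5 reversed a difference that was not called: Twf1 (0.012) and Srf (0.022) under median scaling, and Vasp in 3 of the fits without 1 library, which ranged from -0.077 to 0.13. Another 41 ended a call and 5 added one. The unequal-variance test alone ended the calls of Twf2, Tmod1, Nckap1l, Cttn, Fhod3, Actc1 and Scai (adjusted p = 0.0546 to 0.0993). With 3 libraries per age, small differences can be missed. Depth limits the Capg and Scin start exons, with as few as 3 and 4 reads in a library.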
